A study of Mus musculus with 17 samples.

Results

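Bile acids are made from cholesterol in hepatocytes, secreted into bile and taken up again from the blood. The 10 genes described here were chosen by name: 4 synthesis enzymes (Cyp7a1, Cyp8b1, Cyp27a1 and Cyp7b1), 4 membrane transporters (Slc10a1, Abcb11, Slco1b2 and Abcc3) and 2 nuclear receptors (Nr0b2 and Nr1h4). They are 10 of the 55536 gene identifiers in the RNA-seq tables, and all 10 were found there and passed the filter on low counts. The RNA came from collagenase-perfused livers of C57BL/6J mice aged 3 months with the ApcDHep genotype, in which hepatocytes lose Apc, a brake on β-catenin signalling. All mice, controls included, had received tamoxifen (2 mg, 7 days) and had carried SaCas9 constructs, which encode a compact genome-cutting enzyme, on the viral vector AAV8 for 1 month. The 6 WRE-edited libraries carried a Cas9 edit at a site that β-catenin binds ahead of the DLK1/DIO3 locus, called WRE in the labels. The 5 Rosa26-edited libraries carried an edit at Rosa26, a locus commonly used as a neutral site. The comparison asked whether editing the WRE in β-catenin-activated hepatocytes came with other levels of the bile acid genes, and whether synthesis enzymes differed from transporters and receptors in this. The labels name neither the promoter behind the Apc deletion nor the share of cells edited.

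The classical pathway of bile acid synthesis starts with CYP7A1, and the alternative pathway starts with CYP27A1 and continues through CYP7B1. Hepatocytes take bile acids up from the blood through NTCP and OATP carriers and export them into bile through the bile salt export pump. The nuclear receptor FXR binds bile acids and switches on SHP and the export pump, and SHP represses the first enzyme of the classical pathway. In the liver lobule Cyp7a1 is a gene of the hepatocytes near the central vein, where β-catenin is most active, and its level follows the time of day and feeding.

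The libraries came from 3 runs named in the labels. Run r770 held 3 WRE-edited (1, 2 and 3) and 3 Rosa26-edited (1, 2 and 3) libraries, and r595 held 1 (WRE-edited 6) and 2 (Rosa26-edited 4 and 5). The third run, r711, had no control and gave 2 WRE-edited libraries (4 and 5). The tables held 20727036 to 38935135 expected counts per library. Mitochondrial ribosomal RNA made up 2.29% to 3.00% of counts in r595, against 19.02% to 29.09% in the other runs. Rian, a long non-coding RNA of the edited locus, served as the check of the edit. It had 48.7 to 113 CPM (counts relative to the library's total, scaled between libraries with TMM factors) in the WRE-edited libraries and 171 to 405 CPM in the Rosa26-edited libraries. Its log2 fold change was -2.30 ± 0.26 (SE, edgeR adjusted p = 0.0188), and the groups did not overlap. No label says that each library is a separate animal, so the p-values measure the spread among libraries. The library names of WRE-edited 4 and 6 share the same number. Hepatocyte markers stood at 52152 to 67795 summed CPM in WRE-edited and 52869 to 66266 in Rosa26-edited libraries. Of 12 bile duct markers 5 passed the filter on low counts. Together the 12 summed to 62.8 to 81.7 CPM in WRE-edited and 70.6 to 85.6 CPM in Rosa26-edited libraries. In such bulk RNA, fewer cells of a type and less RNA per cell cannot be told apart.

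None of the 10 genes passed the threshold of 0.05 after Benjamini-Hochberg adjustment over all 14393 genes tested with edgeR. Among all genes the share that passed was 0.00695%, which was Rian alone. The smallest adjusted p among the 10 genes was 0.441, shared by Cyp7a1 and Slco1b2. At an unadjusted p under 0.05, 2 of the 10 genes were lower in WRE-edited libraries, Cyp7a1 and Slco1b2, against 5.14% of all genes, and 0 of the 10 were higher, against 4.95% of all genes. With DESeq2 0 of the 10 were called, against 0.563% of all genes, and the smallest adjusted p was 0.208, for Slco1b2. With no filter on low counts edgeR called 450 genes, and Cyp7a1 (edgeR adjusted p = 0.0188) and Cyp7b1 (edgeR adjusted p = 0.0339) were among them. In that fit the SEs of the 10 genes ran only from 0.16 to 0.18, against 0.11 to 0.86 with the filter. These 2 adjusted p-values therefore hardly reflect how much each gene varied, and the cause was not tested. Fold changes here are WRE-edited over Rosa26-edited within runs, so they rest on r770 and r595, while group means also include the r711 libraries. A fold change can for that reason differ from the ratio of the means.

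**Figure D1:**
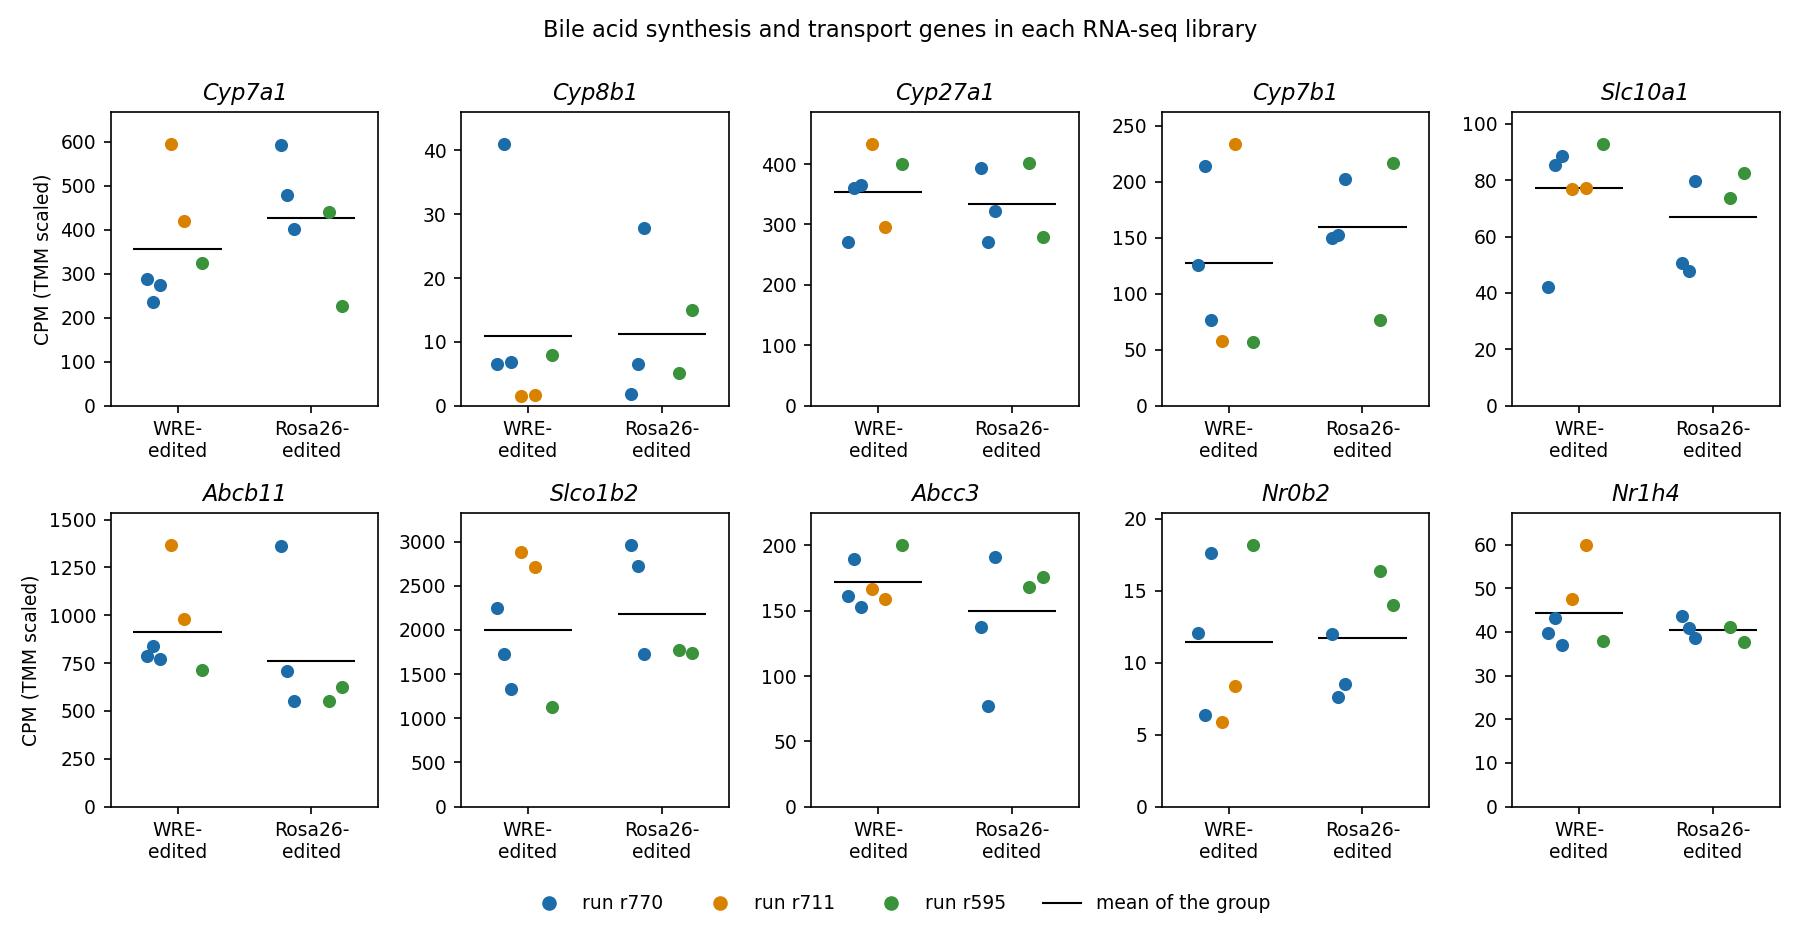
Level of each of the 10 genes in CPM (vertical axes, linear from 0) in the 6 WRE-edited and 5 Rosa26-edited libraries, coloured by run, with a line at each group mean. The groups overlapped for every gene; in r770 alone the 3 WRE-edited points of Cyp7a1, 236 to 288 CPM, lay below the 3 Rosa26-edited points, 401 to 592 CPM.

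Cyp7a1 (ENSMUSG00000028240, chr4:6265612-6275632 in GRCm38.p6) encodes the rate-limiting enzyme of the classical pathway. In r770 it had 288, 236 and 274 CPM in WRE-edited 1, 2 and 3, against 592, 479 and 401 CPM in Rosa26-edited 1, 2 and 3. In r595 the value was 325 CPM in WRE-edited 6, against 441 and 226 CPM in Rosa26-edited 4 and 5. The groups therefore did not overlap in r770 and overlapped in r595. The r711 libraries, WRE-edited 4 and 5, had 596 and 420.4 CPM, above every WRE-edited library of the other runs. Cyp7a1 was the only one of the 10 genes without overlap in r770, where 4.34% of all genes lay lower and 3.29% higher without overlap. Its fitted log2 fold change was -0.61 ± 0.23 (SE), with a 95% interval of -1.11 to -0.12 (edgeR unadjusted p = 0.0195, adjusted p = 0.441). The difference was -0.87 within r770 and 0.04 within r595, both on the log2 scale. The test of the difference between the runs gave -0.84 ± 0.44 (SE, edgeR unadjusted p = 0.0809, adjusted p = 0.779). A fit with no run term, which brings in the r711 libraries, gave -0.26 ± 0.26.

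Cyp7b1 (ENSMUSG00000039519, chr3:18071944-18243890) encodes the oxysterol hydroxylase of the alternative pathway, and it is known as a male-biased gene in mouse liver. It had 126, 214 and 76.5 CPM in WRE-edited 1, 2 and 3, against 150.01, 153 and 202 CPM in Rosa26-edited 1, 2 and 3. In r595 it had 56.7 CPM in WRE-edited 6, against 76.2 and 217 CPM in Rosa26-edited 4 and 5. WRE-edited 6 was the lowest of all libraries, and WRE-edited 5 of r711, at 234 CPM, was the highest. WRE-edited 4 of the same run had 58.0 CPM, so the spread within a group and run exceeded the difference between groups. The log2 fold change was -0.59 ± 0.51, with a 95% interval of -1.73 to 0.56 (edgeR adjusted p = 0.696). It was -0.39 within r770 and -1.18 within r595. No single library decided its sign, but the value was -0.95 without WRE-edited 2, -0.28 without WRE-edited 6 and -0.30 without Rosa26-edited 5. Without WRE-edited 3 and 6 together it was 0.02.

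Cyp27a1 (ENSMUSG00000026170, chr1:74713148-74737897), the mitochondrial sterol hydroxylase that opens the alternative pathway, ranged from 271 to 434 CPM with a median of 363 in WRE-edited libraries, and from 270.2 to 402 CPM with a median of 322 in Rosa26-edited libraries. The highest library exceeded the lowest by 1.61-fold. Fitted over both runs, the log2 fold change was 0.08 ± 0.17, with a 95% interval of -0.29 to 0.46 (edgeR adjusted p = 0.871).

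Cyp8b1 (ENSMUSG00000050445, chr9:121914356-121916305), the hydroxylase that turns synthesis towards cholic acid, varied most. It had 6.48, 41.1 and 6.91 CPM in WRE-edited 1, 2 and 3, against 1.78, 6.50 and 27.8 CPM in Rosa26-edited 1, 2 and 3. Run r595 gave 7.94 CPM in WRE-edited 6, against 5.18 and 14.9 CPM in Rosa26-edited 4 and 5, and in r711 it had 1.57 and 1.62 CPM in WRE-edited 4 and 5. High and low libraries stood in both groups, and the highest exceeded the lowest by 26.2-fold. The rounded counts behind these values ran from 33 to 1420, so counting error was small beside that range. The log2 fold change was 0.34 ± 0.86, with a 95% interval of -1.63 to 2.31 (edgeR adjusted p = 0.896). It was 0.82 within r770 and -0.15 within r595, and it turned to -0.66 without WRE-edited 2 and to -0.05 without Rosa26-edited 1.

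Among the transporters, Slco1b2 (ENSMUSG00000030236, chr6:141629452-141686646) had the smallest p of the 10 genes. It encodes an organic anion carrier that takes up bile acids and many drugs from the blood without sodium. It had 2246, 1722 and 1334 CPM in WRE-edited 1, 2 and 3, against 2966, 2728 and 1726 CPM in Rosa26-edited 1, 2 and 3. In the r595 run Slco1b2 stood at 1123 CPM in WRE-edited 6, against 1767 and 1735 CPM in Rosa26-edited 4 and 5. The groups overlapped in r770 and did not in r595, where the only WRE-edited library was the lowest of all 11. The r711 libraries WRE-edited 4 and 5 had 2881 and 2709 CPM, close to the highest control. The fit gave a log2 fold change of -0.53 ± 0.19, with a 95% interval of -0.94 to -0.13 (edgeR unadjusted p = 0.0144, adjusted p = 0.441). It was -0.48 within r770 and -0.64 within r595, and the test of the difference between runs gave 0.16 ± 0.44 (edgeR unadjusted p = 0.728). A fit with no run term gave -0.13 ± 0.26, and without WRE-edited 3 and 6 together it was -0.32 ± 0.23.

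Abcb11 (ENSMUSG00000027048, chr2:69238282-69342616) encodes the bile salt export pump, a well-known target of FXR. It had 789, 841 and 769.8 CPM in WRE-edited 1, 2 and 3, against 1364, 707 and 552 CPM in Rosa26-edited 1, 2 and 3. Run r595 gave 712 CPM in WRE-edited 6, against 553 and 627 CPM in Rosa26-edited 4 and 5. Rosa26-edited 1 stood far above the other 4 Rosa26-edited libraries, and WRE-edited 4 and 5 of r711 had 1369.6 and 978 CPM. The log2 fold change was -0.00 ± 0.23, with a 95% interval of -0.51 to 0.50 (edgeR adjusted p = 0.998). Without Rosa26-edited 1 it was 0.32 ± 0.15 (edgeR unadjusted p = 0.0543, adjusted p = 0.641). The expected count of Abcb11 was not a whole number in any of the 11 libraries, and for each of the other 9 genes it was whole, within 0.001, in all 11. RSEM, which made these counts, divides reads that map to several genes among them.

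The promoters of these 2 transporters are shown because Slco1b2 had the smallest p of the set and Abcb11 is its textbook FXR target. Each window runs from 250 bases before to 50 bases after a RefSeq start in GRCm38.p6. That start need not be an end of the interval printed for the gene. Slco1b2 lies at chr6:141629268-141629567 on the plus strand and Abcb11 at chr2:69342567-69342866 on the minus strand. Capitals mark the nuclear receptor core AGGTCA on the opposite strand, which reads TGACCT here, and the HNF1 core GTTAAT.
Slco1b2: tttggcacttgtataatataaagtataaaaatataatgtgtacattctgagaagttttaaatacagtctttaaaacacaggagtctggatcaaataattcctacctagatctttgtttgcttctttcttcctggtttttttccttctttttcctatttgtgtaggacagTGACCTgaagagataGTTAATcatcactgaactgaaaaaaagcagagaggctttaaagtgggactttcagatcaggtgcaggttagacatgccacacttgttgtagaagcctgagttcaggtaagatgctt
Abcb11: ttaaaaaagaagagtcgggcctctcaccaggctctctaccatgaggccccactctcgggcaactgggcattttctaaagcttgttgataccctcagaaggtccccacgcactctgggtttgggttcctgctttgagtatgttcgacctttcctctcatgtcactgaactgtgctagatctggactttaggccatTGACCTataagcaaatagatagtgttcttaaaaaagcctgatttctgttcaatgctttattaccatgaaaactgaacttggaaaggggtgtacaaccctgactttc
In Slco1b2 the TGACCT began at base -81 and the GTTAAT at base -66 from the start of its window, that is, its RefSeq start. In Abcb11 the TGACCT began at base -56. The RefSeq start used for Slco1b2 lies inside the interval printed for the gene, which begins at chr6:141629452. RefSeq windows were matched for 7 of the 10 genes, not for Cyp7a1, Cyp7b1 and Abcc3. Exact letters were searched on both strands. AGGTCA was also present in the Nr1h4 window and in 1 of 2 Slc10a1 windows, and in 16.3% of all 32851 windows. GTTAAT was also in the Nr1h4 window and in 7.1% of all windows. CAAGGTC (the NR5A2 motif, found in 3.96% of all windows), CTTTGAT (the TCF/LEF motif, 3.73%) and AGGTCANTGACCT (the inverted repeat that FXR prefers, 0.00913%) were in no window of the 7 genes. The search allowed no mismatch, and the Abcb11 letters aggccatTGACCT differ from that inverted repeat by 1 letter. The letters of AGGTCANTGACCT include AGGTCA. A match is a description of the letters and says nothing of binding.

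Slc10a1 (ENSMUSG00000021135, chr12:80953185-80968705) encodes NTCP, the sodium-dependent carrier that brings conjugated bile acids into hepatocytes. It had 42.2, 85.2 and 88.7 CPM in WRE-edited 1, 2 and 3, against 50.7, 47.6 and 79.6 CPM in Rosa26-edited 1, 2 and 3. The r595 run gave 93.0 CPM in WRE-edited 6, against 73.7 and 82.7 CPM in Rosa26-edited 4 and 5, and in r711 it had 77.0 and 77.2 CPM in WRE-edited 4 and 5. WRE-edited 1 was the lowest of all libraries and the other 5 WRE-edited libraries lay in a narrow band. The fit gave a log2 fold change of 0.27 ± 0.22, with a 95% interval of -0.20 to 0.74 (edgeR adjusted p = 0.663), and it was 0.24 within r770 and 0.25 within r595. Without WRE-edited 1 it was 0.45 ± 0.17 (edgeR unadjusted p = 0.0220, adjusted p = 0.253).

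Abcc3 (ENSMUSG00000020865, chr11:94343295-94393017) encodes MRP3, an exporter towards the blood that serves as an overflow for conjugated bile acids. Its WRE-edited libraries ran from 153 to 201 CPM with a median of 164, against 77.2 to 191 CPM with a median of 168.4 in Rosa26-edited libraries. Rosa26-edited 2, at 77.2 CPM, was the lowest library. The log2 fold change was 0.29 ± 0.20, with a 95% interval of -0.16 to 0.73 (edgeR adjusted p = 0.625). It was 0.40 within r770 and 0.22 within r595, 0.10 without Rosa26-edited 2 and 0.50 without Rosa26-edited 3. In RefSeq the gene overlaps Gm51871, and Cyp7b1 overlaps Gm23686. These overlaps are of whole gene intervals. The expected counts of both genes were whole, within 0.001, in all 11 libraries, so RSEM showed no division of their reads with another gene. Whether counting used strand is not stated in the labels or headers, and the part of the overlapping genes was not tested.

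Of the nuclear receptors, Nr1h4 (ENSMUSG00000047638, chr10:89454234-89533645), which encodes FXR, had the smallest residual SD of the 10 after run and group were fitted, 0.123 on the log2 CPM scale. It had 39.8, 43.2 and 37.0 CPM in WRE-edited 1, 2 and 3, against 43.8, 40.9 and 38.6 CPM in Rosa26-edited 1, 2 and 3. The r595 values were 37.9 CPM in WRE-edited 6, against 41.2 and 37.8 CPM in Rosa26-edited 4 and 5. The r711 libraries were the highest, with 47.5 CPM in WRE-edited 4 and 60.0 CPM in WRE-edited 5. The fit gave a log2 fold change of -0.05 ± 0.11, with a 95% interval of -0.29 to 0.20 (edgeR adjusted p = 0.892).

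Nr0b2 (ENSMUSG00000037583, chr4:133553376-133556686) encodes SHP, the repressor that FXR induces and that lacks a DNA-binding domain of its own. It had 12.04, 6.36 and 17.6 CPM in WRE-edited 1, 2 and 3, against 12.02, 7.63 and 8.49 CPM in Rosa26-edited 1, 2 and 3. In r595 it had 18.2 CPM in WRE-edited 6, against 16.4 and 14.0 CPM in Rosa26-edited 4 and 5, and in r711 it had 5.85 and 8.40 CPM in WRE-edited 4 and 5. The lowest and the highest library were both WRE-edited. The log2 fold change was 0.32 ± 0.26, with a 95% interval of -0.23 to 0.88 (edgeR adjusted p = 0.660). It was 0.26 within r770 and 0.26 within r595, 0.08 without WRE-edited 3 and 0.52 without WRE-edited 2.

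**Figure D2:**
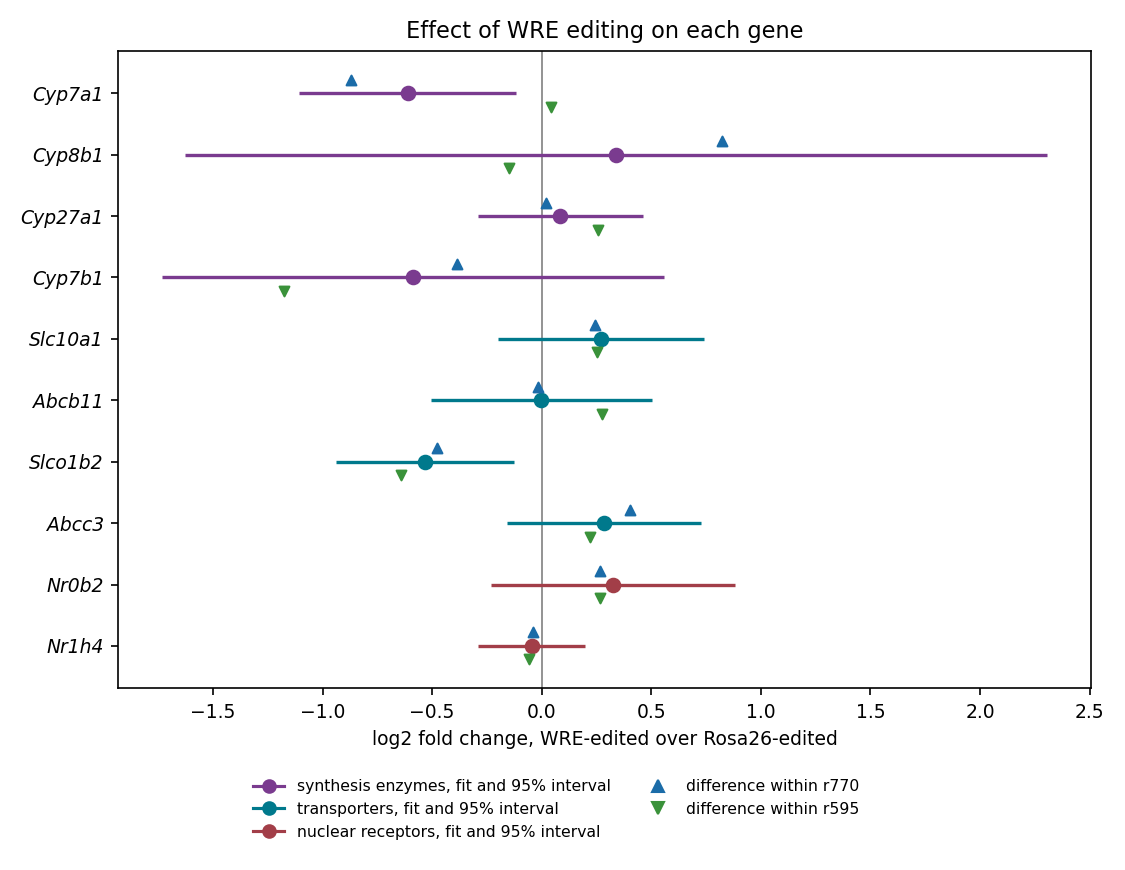
Fitted log2 fold change of each gene (horizontal axis, WRE-edited over Rosa26-edited) with its 95% interval, coloured by class, with triangles at the differences within r770 and within r595. The intervals of Cyp7a1 (-1.11 to -0.12) and Slco1b2 (-0.94 to -0.13) lay below 0 before any adjustment for the number of genes, and the other 8 crossed 0.

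Set side by side, the classes did not move as blocks. The 4 synthesis enzymes had a median log2 fold change of -0.25, with 2 negative and 2 positive values, and 1 of them was lower at an unadjusted p under 0.05. The 4 transporters had a median of 0.13, again with 2 negative and 2 positive, and 1 was lower at that p. The 2 receptors had values of either sign and a median of 0.14. The median was 0.04 over all 10 genes and 0.01 over all 14393 genes tested. Within r770 the class medians were -0.18 for synthesis enzymes, 0.11 for transporters and 0.11 for receptors, and within r595 they were -0.05, 0.24 and 0.10 in the same order. The median of the synthesis enzymes minus that of the transporters was -0.39 on the log2 scale. It was -0.68 without WRE-edited 2 and -0.21 without WRE-edited 6, and -0.02 when WRE-edited 3 and 6 were left out together. The difference between the classes is a description of 4 genes against 4 and was not tested.

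Differences had the same sign in r770 and r595 for 7 of the 10 genes. Of these, 4 were higher in WRE-edited libraries (Cyp27a1, Slc10a1, Abcc3 and Nr0b2), against 32.3% of all genes, and 3 were lower (Cyp7b1, Slco1b2 and Nr1h4), against 28.6% of all genes. Cyp7a1, Cyp8b1 and Abcb11 had opposite signs in the 2 runs. For 0 of the 10 genes did the groups separate in both runs in the same direction, against 1.88% of all genes higher and 2.43% lower. The edgeR test of a difference between the runs gave unadjusted p-values from 0.0809 to 0.953 for the 10 genes, and 0% of genes were called after adjustment. At an unadjusted p under 0.05 it took 6.52% of all genes and 0 of the 10.

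On the TPM scale, a level per transcript length on which genes can be compared, Slco1b2 stood first. It averaged 499 ± 240.2 TPM in WRE-edited and 538 ± 60.1 TPM in Rosa26-edited libraries (SD, n = 6 and 5). Cyp27a1 followed with 152 ± 37.4 TPM in WRE-edited and 153 ± 45.3 TPM in Rosa26-edited libraries, and Abcb11 with 134 ± 52.9 TPM in WRE-edited and 111 ± 37.0 TPM in Rosa26-edited libraries. Slco1b2 was above Cyp27a1 in 11 of 11 libraries, but Cyp27a1 was above Abcb11 in only 8. Cyp7a1 came next, with 74.4 ± 36.2 TPM in WRE-edited and 90.4 ± 24.5 TPM in Rosa26-edited libraries, and it lay below Abcb11 in 10 of 11 libraries. Cyp7b1 had 45.1 ± 33.7 TPM in WRE-edited and 56.8 ± 23.8 TPM in Rosa26-edited libraries. Cyp7a1 was above Cyp7b1 in 9 libraries, and Cyp7b1 above Slc10a1 in 7, so neither pair kept its order in all 11.

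In the lower part of the order each pair of neighbours kept its order in 9 to 11 of 11 libraries, with 9 for Nr0b2 above Cyp8b1. Slc10a1 averaged 34.97 ± 9.95 TPM in WRE-edited and 33.4 ± 13.4 TPM in Rosa26-edited libraries, and Abcc3 averaged 25.9 ± 4.94 TPM in WRE-edited and 24.3 ± 10.2 TPM in Rosa26-edited libraries. Slc10a1 was above Abcc3 in 10 libraries, and Abcc3 above Nr1h4 in 10. Nr1h4 averaged 16.9 ± 6.33 TPM in WRE-edited and 15.9 ± 2.72 TPM in Rosa26-edited libraries, and was above Nr0b2 in all 11. Nr0b2 averaged 7.59 ± 3.04 TPM in WRE-edited and 8.93 ± 4.17 TPM in Rosa26-edited libraries. Cyp8b1 was last, with 4.03 ± 5.76 TPM in WRE-edited and 4.66 ± 4.36 TPM in Rosa26-edited libraries, and it exceeded Nr0b2 in the remaining 2 of 11 libraries.

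**Figure D3:**
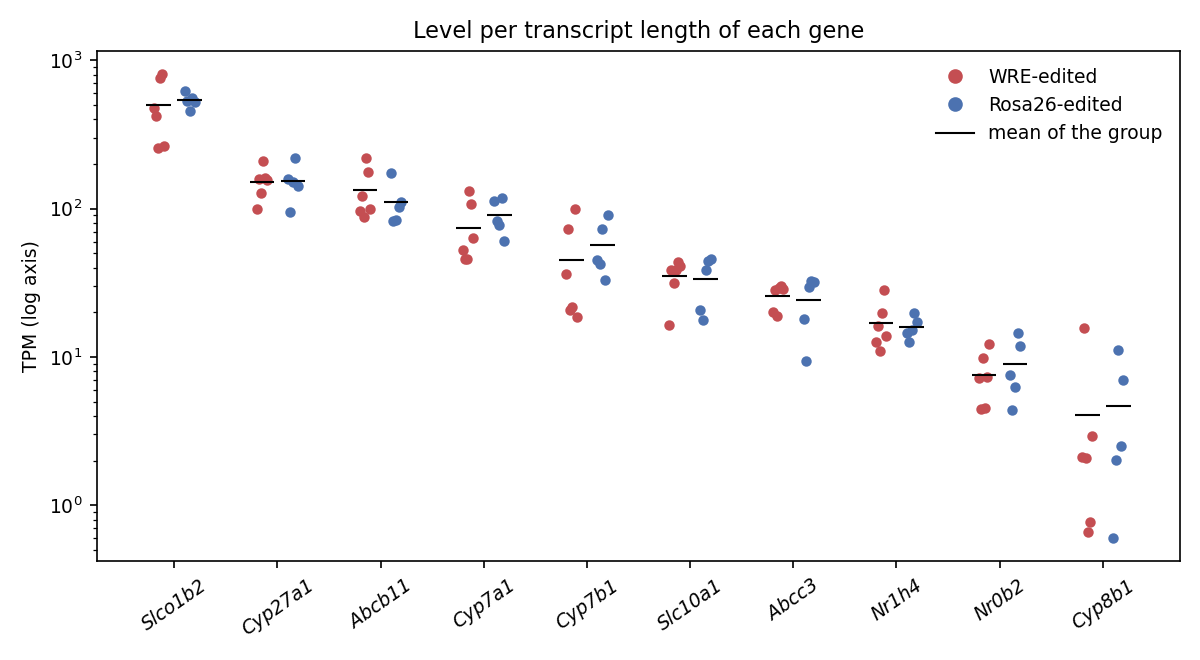
Level per transcript length of the 10 genes in TPM (vertical axis, log scale), ordered by the mean over 11 libraries, with WRE-edited points left of Rosa26-edited points and a line at each group mean. Slco1b2, with 256 to 811 TPM in WRE-edited and 453 to 621 TPM in Rosa26-edited libraries, stood above the other 9 genes, and Cyp8b1 had the widest scatter.

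Ratios of genes within a library, taken from TPM, showed how the pathways stood to each other. Cyp7a1 over Cyp7b1, an entry enzyme of the classical pathway over an enzyme of the alternative one, had a median of 1.83 (0.63 to 5.99) in WRE-edited and 1.95 (0.672 to 3.59) in Rosa26-edited libraries. Cyp8b1 over Cyp7a1 had a median of 0.0428 (0.00503 to 0.341) in WRE-edited and 0.0245 (0.00534 to 0.145) in Rosa26-edited libraries. For the uptake carriers, Slco1b2 over Slc10a1 had a median of 14.7 (6.47 to 29.0) in WRE-edited and 12.4 (11.5 to 30.1) in Rosa26-edited libraries. For the exporters, Abcb11 over Abcc3 had a median of 4.70 (3.46 to 7.53) in WRE-edited and 3.48 (2.84 to 9.60) in Rosa26-edited libraries. The ranges overlapped for each of these ratios.

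The 10 genes differed widely in how tightly they were held between libraries of the same group and run. After run and group were fitted, the residual SD of log2 CPM was 1.40 for Cyp8b1 and 0.817 for Cyp7b1, against a median of 0.293 over all genes. These values lay at percentiles 99.2 and 92.8 of all genes tested. At the other end, Nr1h4 had 0.123, at percentile 4.8. Cyp27a1 (0.288) and Slco1b2 (0.305) were near the middle, and the remaining genes lay between 0.368 for Abcc3 and 0.460 for Nr0b2.

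Beyond these 10 genes, 54 further genes of bile acid handling were matched and 49 passed the filter. Of the 49, 34 had a positive and 15 a negative log2 fold change, with a median of 0.08, and neither edgeR nor DESeq2 called any. At an unadjusted p under 0.05, 4 of the 49 were higher, against 4.95% of all genes, and 2 were lower, against 5.14%. The list of other synthesis and conjugation enzymes had a median of 0.04 over 14 genes tested. In it Acot8, a peroxisomal thioesterase, had 0.48 ± 0.17 (edgeR unadjusted p = 0.0162), and Slc27a2, a very long-chain acyl-CoA synthetase, 0.28 ± 0.14. Cyp2c70, which makes the muricholic acids typical of mice, had -0.25 ± 0.12. All 3 had an adjusted p above the threshold.

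The list of other transporters and their partners had a median of -0.01 over 17 genes, with 9 negative and 8 positive. Tmem30a, the partner subunit of phospholipid flippases such as Atp8b1, had 120.3, 108 and 64.9 CPM in WRE-edited 1, 2 and 3, against 156, 152 and 108 CPM in Rosa26-edited 1, 2 and 3. In r595 it had 66.7 CPM in WRE-edited 6, against 130.1 and 133 CPM in Rosa26-edited 4 and 5. Its log2 fold change was -0.65 ± 0.19 (edgeR unadjusted p = 0.0049, adjusted p = 0.384). Nceh1, a cholesterol ester hydrolase rather than a transporter, had 0.52 ± 0.19, and Slco1a1, a male-biased organic anion carrier related to Slco1b2, had -0.44 ± 0.20.

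Among the other regulators 16 of the 18 genes tested had a positive log2 fold change, with a median of 0.12 against 0.01 over all genes. Rxra, the partner receptor of FXR, had 0.50 ± 0.19 (edgeR unadjusted p = 0.0224). Hnf4a, the hepatocyte factor that sustains Cyp7a1 and Cyp8b1, had 0.32 ± 0.13 (edgeR unadjusted p = 0.0263), and Nr1i3, the receptor CAR, had 0.50 ± 0.23. Rxra ran from 115 to 201 CPM in WRE-edited libraries and from 86.7 to 156 CPM in Rosa26-edited libraries, so the groups overlapped. None of the 3 passed after adjustment.

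**Figure D4:**
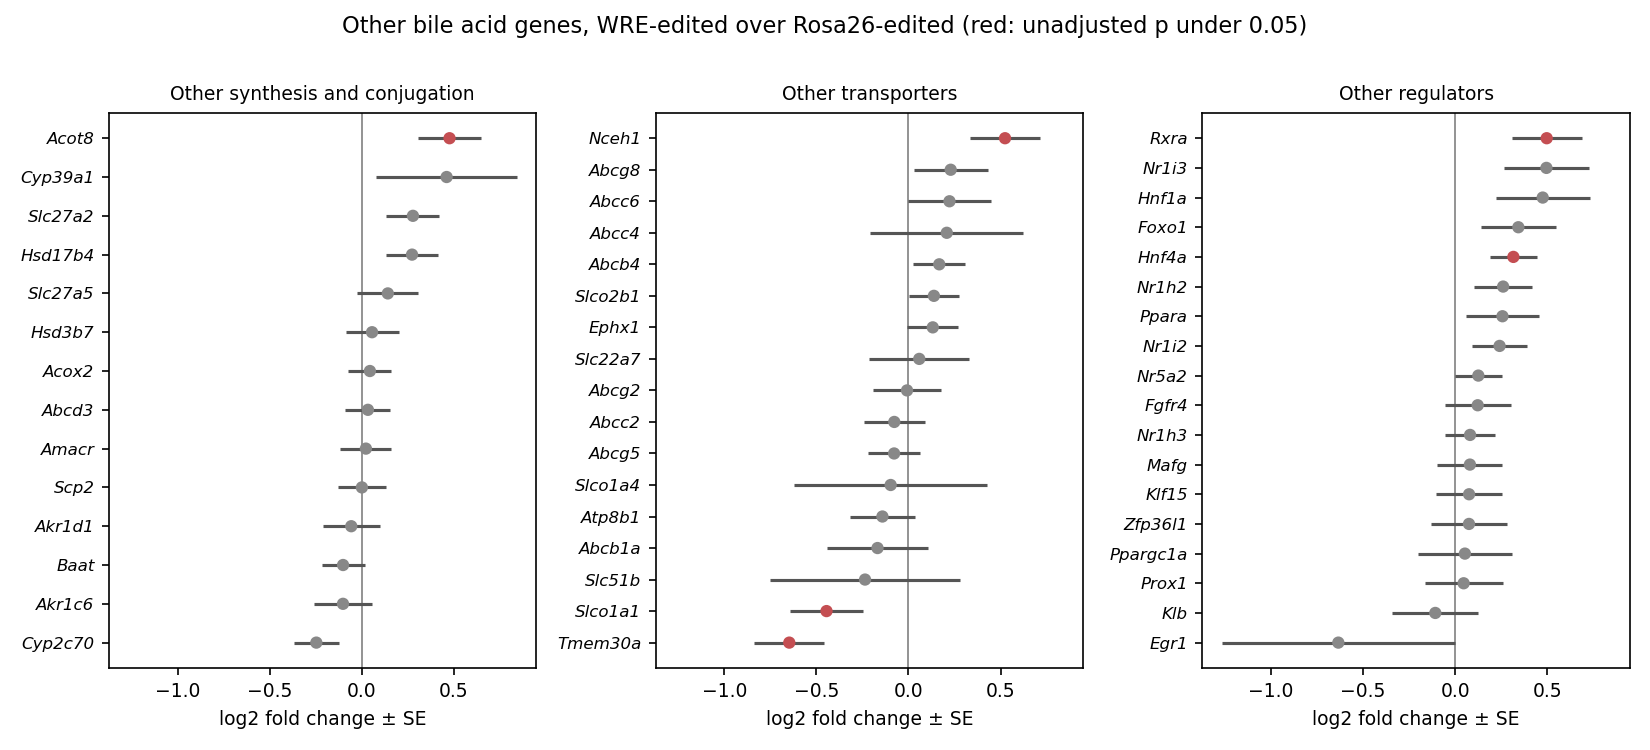
Log2 fold change (horizontal axis, WRE-edited over Rosa26-edited) with SE for the 49 further bile acid genes tested, in 3 lists, with red points at an unadjusted p under 0.05. Points lay on both sides of 0 in each list, and 16 of the 18 other regulators lay right of 0.

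Some libraries stood apart in other genes as well. The 4 Y-linked genes measured, summed with Xist, which was at most 0.285 CPM, had 59.4 CPM in WRE-edited 3 and 72.5 CPM in WRE-edited 6, against 132 to 202 CPM in the other 9 libraries. The same 2 libraries were the lowest of the 11 for Slco1b2 and for Tmem30a. Summed pericentral markers were 25452 CPM in WRE-edited 3 and 28237 CPM in WRE-edited 6, above the other WRE-edited libraries and the 17348 to 20296 CPM of the Rosa26-edited libraries. Pericentral markers had a positive log2 fold change in 9 of 10 genes, with a median of 0.27, which was 0.04 within r770 and 0.68 within r595. Without WRE-edited 3 and 6 the only one of the 10 bile acid genes lower at an unadjusted p under 0.05 was Cyp7a1, at -0.91 ± 0.30 (edgeR adjusted p = 0.998). The part of these differences in the bile acid values was not tested.

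Clock genes and sex-biased genes were read beside these values. In mouse liver Cyp7a1 and Cyp8b1 are known to follow the time of day, and Cyp7b1 to be higher in males. None of 16 clock genes reached an unadjusted p under 0.05, and 9 were positive and 7 negative, with a median of 0.08. Their summed level was 248 to 321 CPM in WRE-edited and 222 to 292 CPM in Rosa26-edited libraries. Nr1d1, the clock repressor REV-ERBα, chosen after its values were seen, had 15.3, 11.6 and 0.491 CPM in WRE-edited 1, 2 and 3, against 25.0, 10.04 and 10.99 CPM in Rosa26-edited 1, 2 and 3. In r595 it had 0.745 CPM in WRE-edited 6, against 1.85 and 0.771 CPM in Rosa26-edited 4 and 5. The r711 libraries WRE-edited 4 and 5, which had high Cyp7a1 and the lowest Cyp8b1 of the WRE-edited group, had 21.9 and 18.3 CPM. Male-biased liver genes, a list that holds Cyp7b1 and Slco1a1, had a negative log2 fold change in 14 of 17 genes with a median of -0.44. Their summed level was 2629 to 4131 CPM in WRE-edited and 3754 to 5466 CPM in Rosa26-edited libraries. Female-biased genes had a negative value in 8 of 13 genes with a median of -0.46, and summed to 166 to 258 CPM in WRE-edited and 186 to 442 CPM in Rosa26-edited libraries. The part of clock phase and of sex-biased expression in the values of Cyp7a1, Cyp8b1 and Cyp7b1 was not tested.

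**Figure D5:**
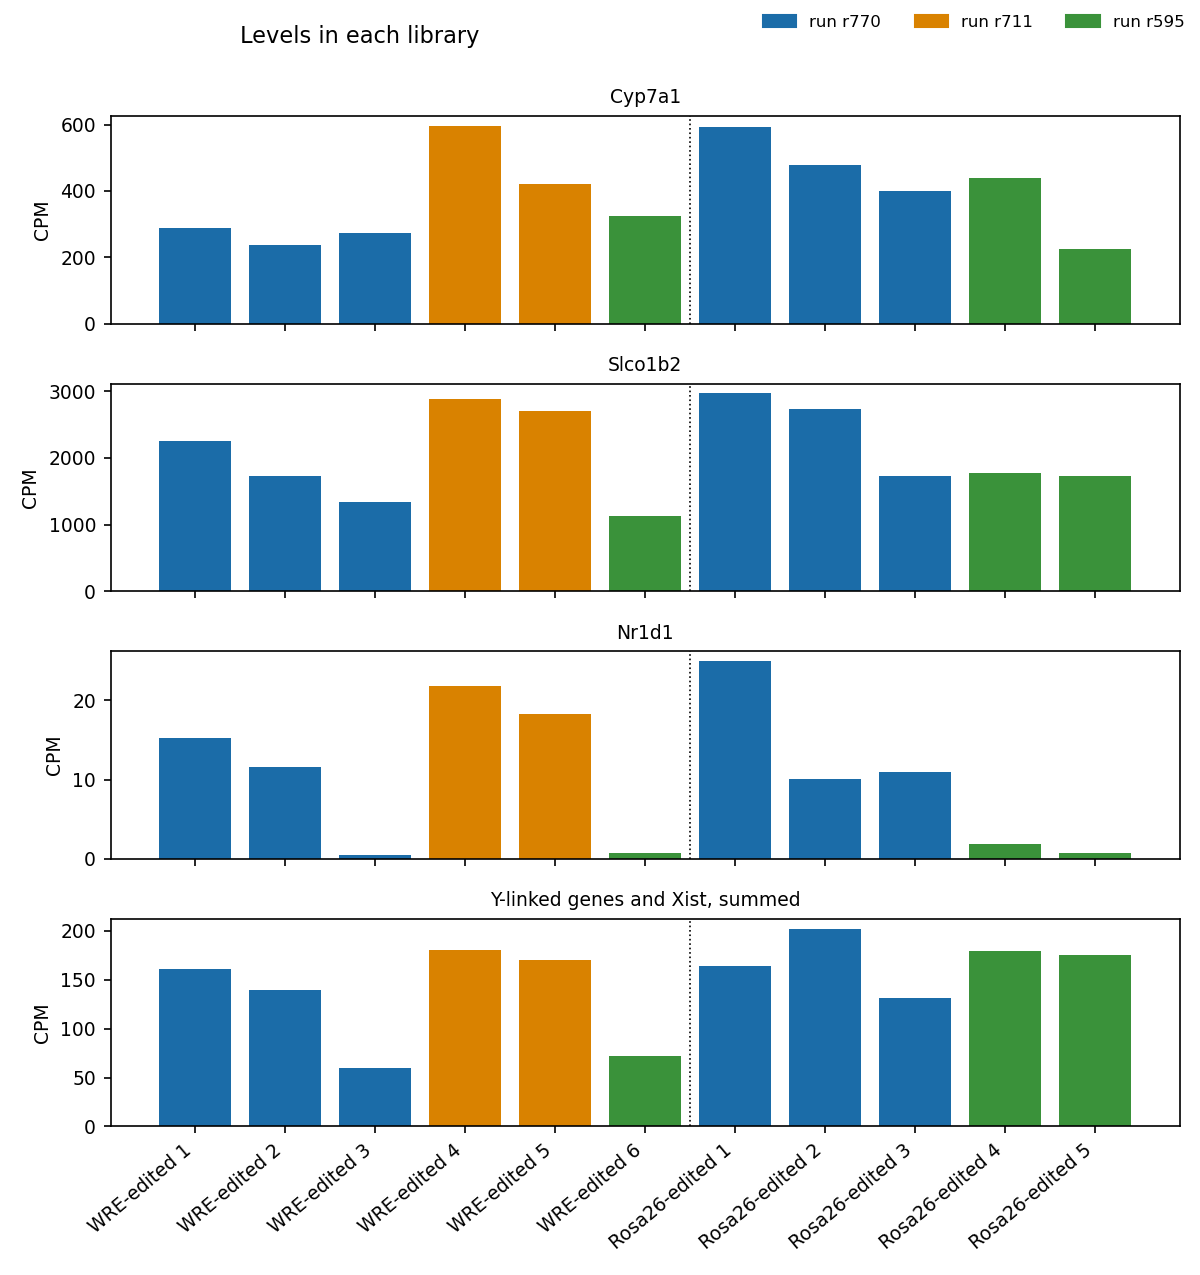
Levels in each of the 11 libraries in CPM (vertical axes, linear from 0), coloured by run, for Cyp7a1, Slco1b2, Nr1d1 and the sum of the Y-linked genes with Xist. WRE-edited 3 and 6 were the lowest libraries for Slco1b2 (1334 and 1123 CPM) and for the summed Y-linked genes (59.4 and 72.5 CPM), and Nr1d1 was under 2 CPM in these 2 and in Rosa26-edited 4 and 5.

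Markers of other liver cells also differed in level. All 12 macrophage markers had a negative log2 fold change (median -0.41), with summed levels of 465 to 627 CPM in WRE-edited and 419 to 1438 CPM in Rosa26-edited libraries. Stellate cell and fibroblast markers had a median of -0.53 over 11 genes tested, with 46.1 to 115 CPM in WRE-edited and 80.7 to 115 CPM in Rosa26-edited libraries. Endothelial markers had a median of -0.22 over 12 genes, with 171 to 262 CPM in WRE-edited and 181 to 269.8 CPM in Rosa26-edited libraries. Bile duct markers had a median of 0.07 over 5 genes tested, and summed to 62.8 to 81.7 CPM in WRE-edited and 70.6 to 85.6 CPM in Rosa26-edited libraries. The part of these cells in the bile acid values was not tested. The early genes of cell isolation summed to 1113 CPM in Rosa26-edited 1, the library with the highest Cyp7a1, Abcb11 and Slco1b2 among the controls, against 186 to 455 CPM in the other 10. In these genes 11 log2 fold changes were negative and 5 positive, with a median of -0.33, and their part was not tested either.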

How the data were processed

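The values are expected counts per Ensembl gene, 1 table per library, as the authors deposited them. Per the submitters' processing notes, reads were handled with STAR 2.7.6a and RSEM 1.3.1 and the build was GRCm38. The deposited tables also give TPM per gene and other values, the effective lengths in bases, per the file headers. How strand was treated and which annotation was used is not stated there. The deposited FPKM, normalized matrix, miRNA counts and design tables were not used, and 0 columns belonged to unmapped samples. Counting intervals were not needed, since the tests use the spread among libraries.

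Expected counts were rounded. Of 55536 identifiers 55450 matched the gene name table, and the list symbols Stard1 and Tf did not. Positions and promoter windows came from RefSeq for GRCm38.p6, 1-based. In R 4.3.3, edgeR 4.0.16 was run with filterByExpr by group (minimum count 10, minimum total 15), TMM, run and group as terms and robust quasi-likelihood fitting, with two-sided tests and 7 residual degrees of freedom. Adjustment was by Benjamini-Hochberg over 14393 genes with a threshold of 0.05. The method was tested on simulated data. Residual SDs used log2 CPM from edgeR with a prior count of 2. The runs were read from the library names in the labels. Group libraries differed far beyond counting noise in all 25 pairs (chi-square per degree of freedom 25.3 to 616).

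The 10 genes and all lists were chosen with earlier results of these data known. The genes named were the 10, up to 3 per list with the smallest p, and Rian. Nr1d1 was named after its values were seen. Lists of other cell types, clock and sex-biased genes are described by sums and medians. Alternatives were no filter, DESeq2 1.42.0 size factors, the DESeq2 Wald test on the same genes, no run term, r770 alone, effective lengths as offsets, WRE-edited 4 and 6 summed with the run term also dropped, a replicate block with and without the run, and each library left out. Leaving out WRE-edited 3 and 6 together was added after seeing the data.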

Additional observations from a re-analysis of the deposited data

Results flagged for a closer look

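Of the 20 combinations of 10 genes and 2 groups, 3 held a library far from the others of its group by Dixon's criterion. The criterion was applied to CPM over all runs. Chance alone meets it in about 1 in 20 groups if values are normally distributed around 1 mean. CPM values from several runs need not be. Cyp8b1 stood at 41.1 CPM in WRE-edited 2, the highest of the 6 WRE-edited libraries, of which the next reached 7.94 CPM. Without that library the log2 fold change of Cyp8b1 was -0.66 ± 0.76, against 0.34 ± 0.86 with it. Slc10a1 stood at 42.2 CPM in WRE-edited 1, the lowest of the 6 WRE-edited libraries, of which the next had 77.0 CPM. Abcb11 stood at 1364 CPM in Rosa26-edited 1, the highest of the 5 Rosa26-edited libraries, of which the next had 707 CPM. Each of these 3 outlying values belonged to a different library.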

How the results depend on the processing

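Over 21 alternatives the genes called over the whole table numbered 1 in edgeR as described, 450 with no low-count filter, 81 with DESeq2, 0 without the run term, 0 in r770 alone, 0 without WRE-edited 3 and 6, and 0 to 2 with each library left out. Of the 10 bile acid genes, 2 were called with no low-count filter, Cyp7a1 (edgeR adjusted p = 0.0188) and Cyp7b1 (edgeR adjusted p = 0.0339), and 0 in each of the other 20. In that unfiltered fit the SE was 0.18 for Cyp8b1 and 0.17 for Cyp7b1, against 0.86 and 0.51 in the filtered one. The cause was not tested. The number at an unadjusted p under 0.05 was 2, and it was 0 with no run term, 0 once WRE-edited 4 and 6 were summed (a fit that also had no run term), 1 in r770 alone, 1 without WRE-edited 3 and 6, and 1 to 3 with each library left out. Cyp7a1 stayed negative throughout, from -0.91 to -0.26, as did Slco1b2, from -0.68 to -0.02, and each kept an unadjusted p under 0.05 in 15 of 21. These fits share most of their libraries, so that count is not one of independent checks. Run r711 has no control, so leaving out either of its libraries could hardly move the estimates. Cyp7a1 then stayed at -0.61 and Slco1b2 at -0.53. Neither gene kept that p in any fit that pooled the runs with no run term. With each library left out the class medians ran from -0.59 to -0.13 for synthesis enzymes, without WRE-edited 2 and 6 at the ends, from 0.018 (without Rosa26-edited 2) to 0.25 (without Rosa26-edited 1) for transporters, and from 0.03 (without WRE-edited 3) to 0.23 (without Rosa26-edited 1) for receptors. Without WRE-edited 3 and 6 together they were -0.020, 0.0030 and -0.011, in the same order, and the receptors had -0.066 in the block without the run term.

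The labels give no pairing of the libraries. Same-numbered libraries correlated at -0.09 to 0.18, and 0 pairs matched their own number best. These correlations did not take out run, and numbers 4 and 5 set r711 against r595. They therefore cannot decide whether the numbers pair the libraries. A replicate block with the run term called 2 genes over the table and 0 of the 10. A block without the run term left 0 of the 10 at an unadjusted p under 0.05 and put Cyp8b1 at -0.55, Abcb11 at 0.38, Nr0b2 at -0.28 and Nr1h4 at 0.15.

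Other signs turned too. Abcb11 was 0.0035 with DESeq2 size factors and 0.0036 with the DESeq2 test, 0.26 with no run term, 0.21 in the summed fit with no run term, and -0.13 to 0.32 with each library left out. Cyp8b1 was -0.028 without the run term and -0.66 to 1.35 with each library left out. Nr0b2 was -0.035 without the run term, -0.050 in the summed fit, again with that term dropped. It was -0.036 without WRE-edited 3 and 6, where Nr1h4 was 0.014, Cyp27a1 -0.057 and Cyp7b1 0.018, against -0.59 in all libraries. Nr1h4 was 0.13 without the run term and 0.13 in the summed fit, which had none either. The count of genes that differed between runs was 0 to 2 with each library left out. These causes were not tested. The r595 difference rests on 1 WRE-edited library, and r711 has no control.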
